A study of Homo sapiens with 16 samples.

Results

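The genes described here are PRLR, JAK2, STAT5A, STAT5B, CISH, SOCS1, SOCS2 and SOCS3, the core of the prolactin receptor pathway and its feedback inhibitors. They were taken by name, and all 8 of them were found among the 26364 genes counted. Their levels were followed in 2 human cancer cell lines, Ishikawa cells (an endometrioid adenocarcinoma line of the endometrium) and T-47D cells (a breast carcinoma line), during 17β-estradiol (E2) treatment. Both lines were held in hormone-deprived medium, without phenol red and with charcoal-stripped serum, before any treatment, so the cells at 0 h share this deprivation with the treated cells. E2 was given at 10 nM for 2, 4 or 8 h, and the 0 h cells received vehicle. Each of the 4 time points had 2 libraries per line, for 16 libraries in all, made with a directional kit from poly(A) RNA. Each line stands for 1 tumor, and the labels do not say whether the 2 libraries of a group came from separate cultures, so p-values measure the spread between these libraries, which may be technical.

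As background, prolactin binds its receptor at the cell surface and thereby activates the kinase JAK2, which phosphorylates the transcription factors STAT5A and STAT5B. STAT5 dimers enter the nucleus and bind a palindromic element that starts with TTC and ends with GAA. CISH and the SOCS genes are transcribed in response to cytokines, and their proteins bind receptors or JAK kinases and turn the signal down. In breast epithelium this pathway drives lobuloalveolar growth and milk protein expression, and in the endometrium it is known from decidualization and the secretory phase.

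Total counts ran from 41177912 to 58918642 per library in Ishikawa cells and from 41223813 to 64148903 in T-47D cells. E2 targets outside the gene set moved under treatment, since GREB1 and PGR were called up at each of 2, 4 and 8 h in both lines, and TFF1 at 4 h and 8 h in T-47D cells. A gene was called when edgeR's quasi-likelihood test gave a Benjamini-Hochberg adjusted p under 0.05 over all genes tested in that comparison. All 9 breast luminal markers and 8 of 8 endometrial markers reached 1 CPM on average in the line they belong to, against 7 of 9 luminal markers in Ishikawa cells and 3 of 8 endometrial markers in T-47D cells, where SOX17 and EMX2 were at 0. The summed luminal level was 12692.5 to 16488.7 CPM in T-47D cells and 2014.2 to 2460.1 CPM in Ishikawa cells. The endometrial list, which shares KRT8 and KRT18 with the luminal one, also summed higher in T-47D cells (5110.23 to 7474.66 CPM) than in Ishikawa cells (2384.24 to 2813.79 CPM). Of 8 non-epithelial markers, 3 reached 1 CPM in each line, with sums of 173.966 to 303.595 CPM in Ishikawa cells and 78.7726 to 101.587 CPM in T-47D cells. The 4 Ishikawa libraries of 4 h and 8 h did not separate by their labels. Each was nearest, over the most variable of the well-counted genes, to a library of the other time point. Between 8 h and 4 h, 2 of 15787 genes were called. Values for Ishikawa cells at these times are therefore also given with 4 h and 8 h as 1 group.

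CISH, which encodes a cytokine-induced inhibitor that binds activated receptors, lies on chromosome 3 at 50643920 to 50649205 on the minus strand of GRCh37. Its promoter is shown because it was the member whose transcript rose at every time point in both lines. Below are the 250 bases upstream of its RefSeq start (GRCh38.p14, chr3:50611775-50612024, minus strand, written 5′ to 3′), with each match to the STAT5 palindrome TTCNNNGAA in capitals.

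CISH: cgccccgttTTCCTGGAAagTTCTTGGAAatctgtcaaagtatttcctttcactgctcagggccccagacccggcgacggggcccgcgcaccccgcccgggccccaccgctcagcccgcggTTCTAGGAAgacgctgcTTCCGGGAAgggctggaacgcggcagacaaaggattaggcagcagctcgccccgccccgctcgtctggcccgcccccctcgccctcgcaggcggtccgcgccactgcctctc

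The first bases of these 4 matches stood 241, 230, 129 and 112 bases before the start, in 2 close pairs. At least 1 match was present in 7.66% of 35116 RefSeq promoter windows of 300 bases, and at least 4 matches in 7 windows, or 0.0199%. The palindrome reads the same on both strands, so each match was counted once. Windows were found for 7 of the 8 genes, 14 windows in all, and no match lay in those of PRLR, JAK2, STAT5A, STAT5B, SOCS1 or SOCS3. The palindromic estrogen response element was in 0.057% of all windows and in none of these 14. A match is a run of letters and not evidence of binding, and these windows leave out more distant elements.

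**Figure D1:**
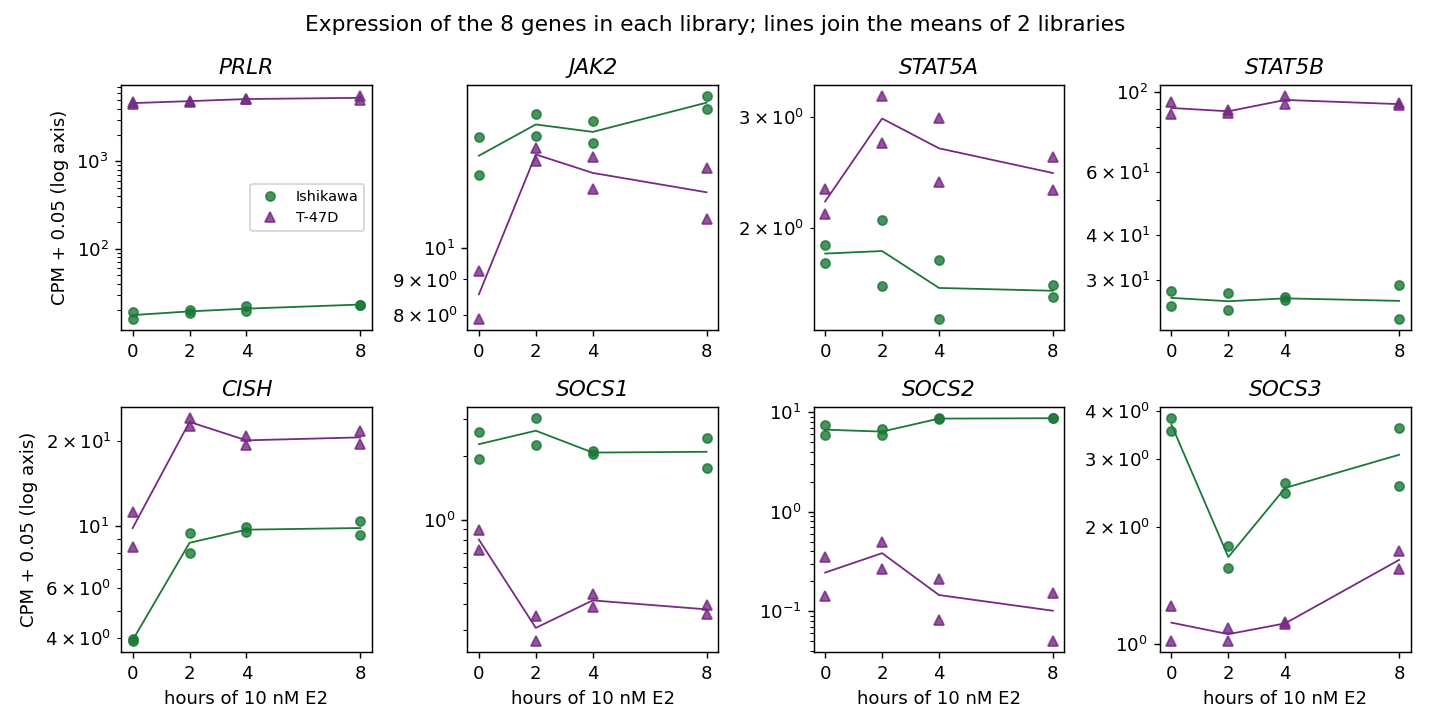
Level of each gene in every library, in CPM plus 0.05 on a log axis, against hours of 10 nM E2; circles are Ishikawa and triangles T-47D libraries, lines join the mean of the 2 libraries of a time point, and each panel has its own range. CISH stepped up by 2 h and stayed up in both lines, SOCS3 dipped at 2 h in Ishikawa cells, and PRLR in T-47D cells stayed between 4511.84 and 5560.60 CPM.

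CISH rose in both the endometrial and the breast cells. In Ishikawa cells its libraries held 3.85 and 3.91 CPM (counts on TMM-scaled libraries brought to one common size) at 0 h, 7.94 and 9.35 after 2 h, 9.84 and 9.42 after 4 h, and 9.19 and 10.3 after 8 h. All 6 treated libraries lay above both 0 h libraries. The 4 h and 8 h ranges overlapped each other, as did those of 2 h and 8 h. The T-47D libraries were at 11.1 and 8.37 CPM at 0 h, 22.5 and 23.98 after 2 h, 19.2 and 20.8 after 4 h, and 21.5 and 19.4 after 8 h. The groups again did not overlap with 0 h, although the 2 untreated T-47D libraries were further apart than those of Ishikawa cells.

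On the log2 scale the change of CISH in Ishikawa cells was 1.17 (SE 0.13, adjusted p = 3.91e-05) at 2 h, 1.32 (SE 0.13, adjusted p = 7.91e-06) at 4 h and 1.33 (SE 0.13, adjusted p = 7.02e-06) at 8 h, and 1.32 (adjusted p = 5.82e-07) with 4 h and 8 h as 1 group. In T-47D cells it was 1.24 (SE 0.11, adjusted p = 2.34e-07), 1.03 (SE 0.11, adjusted p = 1.73e-06) and 1.07 (SE 0.11, adjusted p = 6.9e-07). The 3 contrasts of a line share its 0 h libraries and are not independent of each other. No step between treated time points was called for CISH in either line. The difference between the lines in this response, T-47D minus Ishikawa, was 0.09 (95% interval -0.29 to 0.47) at 2 h, -0.28 (-0.66 to 0.10) at 4 h and -0.26 (-0.64 to 0.12) at 8 h, and was not called at any of them. The intervals still include differences from -0.66 to 0.47. CISH stayed called at each time in both lines when any 1 library was left out, with log2 changes of 1.05 to 1.27 at 2 h in Ishikawa cells and 1.07 to 1.47 in T-47D cells.

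CISH shares 107 of the 2176 exon bases of its protein-coding transcripts with MAPKAPK3, a kinase gene on the opposite strand, and the strand setting of the counting is not given in the sources used here. MAPKAPK3 itself changed by -0.12 (SE 0.07, adjusted p = 0.469) at 2 h in Ishikawa cells and by -0.01 (SE 0.05, adjusted p = 0.957) in T-47D cells, and was not called at 4 h or 8 h in either line. Over the 16 libraries, each line centred on its 0 h mean, the genes with the pattern most like CISH among 11901 compared were FHL2 (r = 0.974), SLC35F6 (r = 0.953) and THBS1 (r = 0.948). Libraries of a line share their time points, so these correlations are a description of likeness.

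PRLR, the prolactin receptor, is on chromosome 5 at 35048861 to 35230589 on the minus strand of GRCh37, and it separated the 2 lines more than any other of the 8 genes. Before E2, PRLR was at 19.1 and 15.7 CPM in the Ishikawa libraries and at 4729.77 and 4511.84 CPM in the T-47D libraries. It was the gene with rank 4 of 26364 by mean CPM in T-47D cells, where it took 0.451% of all counts, and had rank 8519 in Ishikawa cells. The 0 h difference was 8.05 on the log2 scale (SE 0.09, adjusted p = 5.13e-24), or 265-fold. The line and any culture or library batch of that line cannot be told apart, and in these bulk samples more cells with the transcript and more transcript per cell cannot be told apart either.

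**Figure D2:**
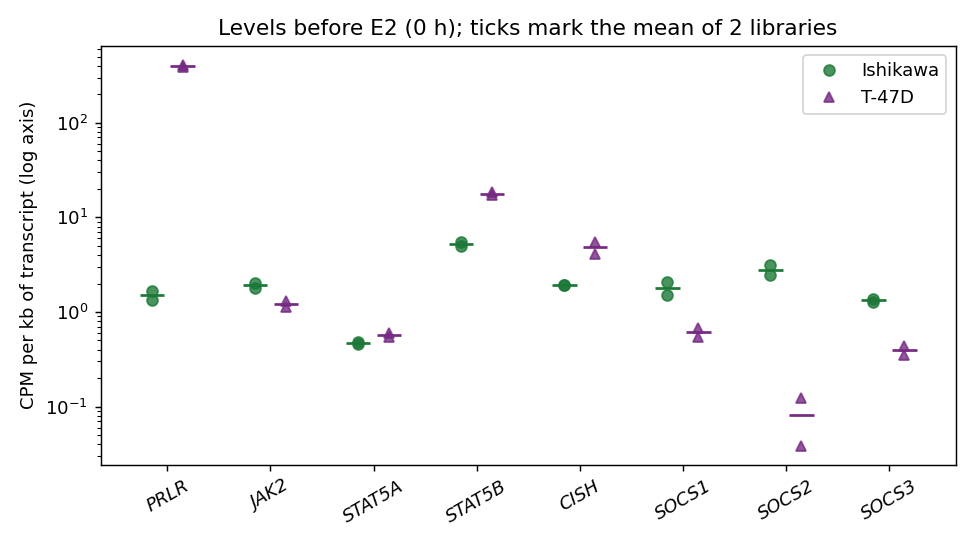
Level of each gene at 0 h in CPM per kb of transcript on a log axis, with 1 point per library (circles Ishikawa, triangles T-47D) and a tick at the mean of the 2 libraries of a line. PRLR is at 1.504 CPM per kb in Ishikawa and 399 in T-47D cells, while STAT5A is close in both lines and SOCS2 is far lower in T-47D cells.

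Per kb of transcript, the order of mean levels at 0 h in T-47D cells was PRLR (399 CPM per kb), STAT5B (17.8), CISH (4.83), JAK2 (1.21), SOCS1 (0.610), STAT5A (0.571), SOCS3 (0.396) and SOCS2 (0.0816). The libraries of neighbours in this order overlapped only for SOCS1 and STAT5A. In Ishikawa cells it was STAT5B (5.25 CPM per kb), SOCS2 (2.79), JAK2 (1.92), CISH (1.92), SOCS1 (1.79), PRLR (1.504), SOCS3 (1.33) and STAT5A (0.470). There the middle of the order, from JAK2 to SOCS3, formed a run in which each gene overlapped its neighbour, so PRLR was an ordinary member of the set in this line. With the exons of all protein-coding transcripts of a gene joined, a choice added after seeing the data, SOCS2 fell to 1.15 CPM per kb and below SOCS3 in Ishikawa cells.

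At 0 h, 7 of the 8 genes were called between the lines, where 81.9% of 17090 genes tested were called, so being called there does not set these genes apart. The 3 higher in T-47D cells, beside 39.5% of all genes, were PRLR, STAT5B (1.76 on the log2 scale, SE 0.08, adjusted p = 4.9e-14) and CISH (1.33, SE 0.14, adjusted p = 1.77e-08). The 4 lower there, beside 42.4% of all genes, were JAK2 (-0.66, SE 0.11, adjusted p = 2.16e-05), SOCS1 (-1.56, SE 0.28, adjusted p = 3.75e-05), SOCS3 (-1.74, SE 0.22, adjusted p = 4.83e-07) and SOCS2 (-5.10, SE 0.38, adjusted p = 9.41e-11). Thus all 3 SOCS genes of the set were lower in T-47D cells and CISH, which belongs to the same protein family, was higher. The 4 other SOCS genes, outside the set, were also called lower there at 0 h. Their median difference was -0.48, against -0.05 over all genes, so the lower level is not particular to the 3. STAT5A did not pass (0.28, 95% interval -0.17 to 0.73, adjusted p = 0.238).

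After E2, PRLR was called slightly up at 4 h and 8 h in T-47D cells and, among single time points, only at 8 h in Ishikawa cells. In T-47D cells the libraries held 4820.03 and 4915.16 CPM at 2 h, 5185.52 and 5101.23 after 4 h, and 5062.98 and 5560.60 after 8 h. Every treated library lay above both 0 h libraries, with a log2 change of 0.07 (SE 0.04, adjusted p = 0.281) at 2 h, which passed without a filter on low counts (adjusted p = 0.0494), 0.15 (SE 0.04, adjusted p = 0.00529) at 4 h and 0.20 (SE 0.04, adjusted p = 0.00027) at 8 h. In Ishikawa cells they held 18.5 and 19.9 CPM at 2 h, 19.4 and 21.9 after 4 h, and 23.0 in both libraries at 8 h.

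Of these, the 2 h group overlapped the 0 h range of PRLR in Ishikawa cells and the later groups did not. The change was 0.15 (adjusted p = 0.5) at 2 h, 0.25 (adjusted p = 0.117) at 4 h and 0.40 (SE 0.10, adjusted p = 0.012) at 8 h, and 0.33 (SE 0.09, adjusted p = 0.016) with 4 h and 8 h as 1 group. The 8 h call in Ishikawa cells was lost without replicate 2 of 0 h (0.27, adjusted p = 0.138) or without replicate 2 of 8 h (0.39, adjusted p = 0.0549). The responses differed between the lines by -0.20 (95% interval -0.40 to 0.00255) at 8 h, which was not called. The genes most like PRLR over the 16 libraries were ATP6V1A (r = 0.950), GRSF1 (r = 0.941) and KIF5B (r = 0.939).

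JAK2, the receptor-bound tyrosine kinase, lies on chromosome 9 at 4984390 to 5129948 on the plus strand of GRCh37 and rose in T-47D cells. There it was at 9.19 and 7.84 CPM at 0 h, 13.8 and 13.3 after 2 h, 13.4 and 12.1 after 4 h, and 10.95 and 13.0 after 8 h. All 6 treated libraries exceeded both untreated ones. The log2 change was 0.66 (SE 0.11, adjusted p = 0.000533) at 2 h, 0.58 (SE 0.11, adjusted p = 0.00101) at 4 h and 0.49 (SE 0.11, adjusted p = 0.00284) at 8 h, and the last lost its call without replicate 2 of 8 h (0.37, adjusted p = 0.051).

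In Ishikawa cells JAK2 was at 14.3 and 12.7 CPM at 0 h, 14.4 and 15.5 after 2 h, 14.1 and 15.2 after 4 h, and 16.5 and 15.7 after 8 h. The 4 h group overlapped 0 h, the other groups lay just above it, and none was called, with changes of 0.16 (adjusted p = 0.455), 0.12 (adjusted p = 0.453) and 0.25 (adjusted p = 0.0836). The 8 h change of JAK2 passed when replicate 1 of 0 h was left out (0.34, adjusted p = 0.0378). A call in T-47D cells alone does not show a difference between the lines: the difference itself was 0.52 (95% interval 0.19 to 0.85, adjusted p = 0.107) at 2 h, 0.47 (0.14 to 0.80, adjusted p = 0.0933) at 4 h and 0.23 (-0.10 to 0.56, adjusted p = 0.419) at 8 h. The genes most like JAK2 in pattern were CCDC117 (r = 0.959), UGCG (r = 0.958) and CNOT6 (r = 0.956).

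The STAT5 genes lie side by side on chromosome 17 of GRCh37, STAT5A at 40439565 to 40463961 on the plus strand and STAT5B at 40351194 to 40440651 on the minus strand. Their proteins are close paralogs with overlapping targets. Of the stretches of 50 bases in their main transcripts, 507 were identical in both, which is 13.6% of those of STAT5A and 10.1% of those of STAT5B, and the genes share 415 exon bases in opposite orientation. How the counting divided reads from these stretches is not given in the sources used here, so the split between the pair is uncertain.

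STAT5B was at 25.4 and 27.9 CPM in Ishikawa and 86.7 and 93.9 CPM in T-47D cells at 0 h. After E2 it ran from 23.3 to 29.0 CPM in the 6 treated Ishikawa libraries and from 87.5 to 97.5 CPM in the 6 treated T-47D libraries. No time point was called for STAT5B, and its changes stayed between -0.04 and 0.07 on the log2 scale. The intervals in T-47D cells were narrow, -0.15 to 0.07 at 2 h, -0.04 to 0.18 at 4 h and -0.07 to 0.14 at 8 h.

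STAT5A was at 1.83 and 1.71 CPM in Ishikawa and 2.06 and 2.25 CPM in T-47D cells at 0 h. Its treated libraries held 1.39 to 2.01 CPM in Ishikawa and 2.25 to 3.19 CPM in T-47D cells. The largest change was at 2 h in T-47D cells, where 2.68 and 3.19 CPM lay above both 0 h libraries, yet it was not called (0.44, 95% interval 0.03 to 0.84, adjusted p = 0.192). The interval of STAT5A in Ishikawa cells reached from -0.50 to 0.53 at 2 h, so changes within that range are not excluded.

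**Figure D3:**
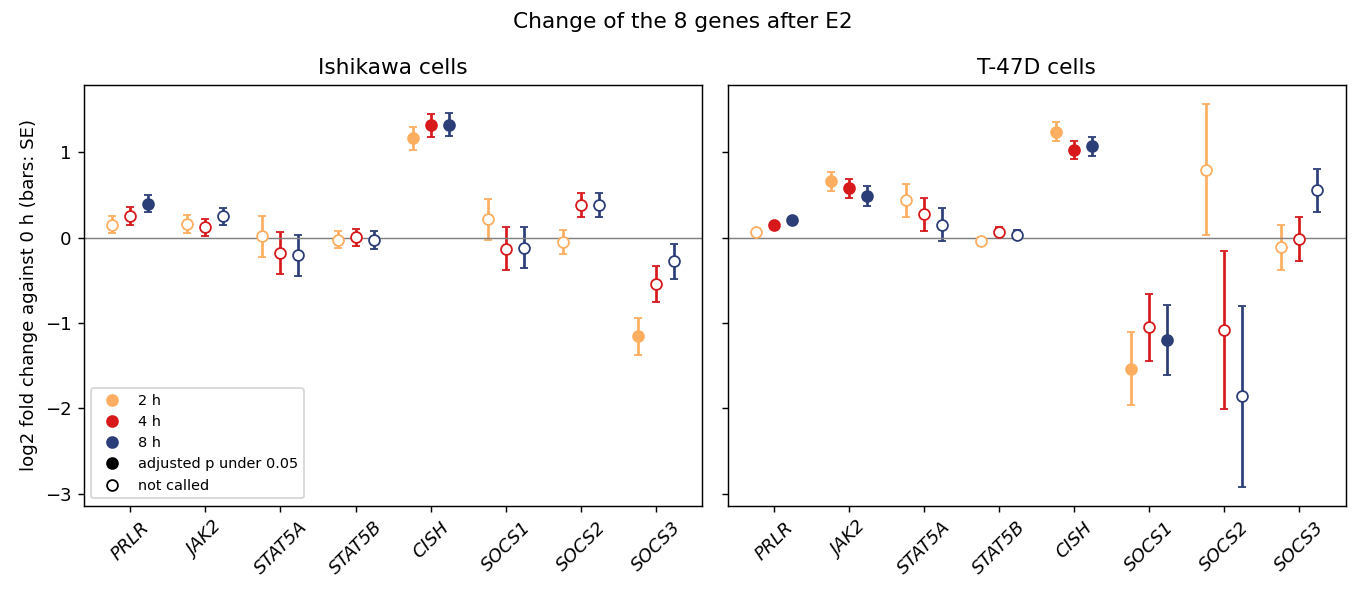
Log2 fold change against 0 h for each of the 8 genes at 2, 4 and 8 h in Ishikawa (left) and T-47D cells (right); bars are standard errors, and filled points have an adjusted p under 0.05. CISH is up at every time in both lines, SOCS3 is down only at 2 h in Ishikawa cells by this threshold, SOCS1 is down at 2 h and 8 h in T-47D cells, and the SOCS2 bars in T-47D cells are wide.

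Among the inhibitors other than CISH, the direction and timing differed from gene to gene. SOCS3, which binds cytokine receptors and JAKs and is best known for restraining IL-6 family signals, lies on chromosome 17 at 76352859 to 76356158 on the minus strand of GRCh37. In Ishikawa cells it was at 3.49 and 3.78 CPM at 0 h, 1.73 and 1.52 after 2 h, 2.55 and 2.41 after 4 h, and 2.51 and 3.55 after 8 h. The 2 h libraries lay below all others, and by 8 h replicate 2 was back within the 0 h range.

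The SOCS3 change in Ishikawa cells was -1.16 (SE 0.22, adjusted p = 0.00425) at 2 h, -0.55 (SE 0.21, adjusted p = 0.0982) at 4 h and -0.27 (SE 0.21, adjusted p = 0.371) at 8 h. The 2 h call was lost without replicate 2 of 0 h (-1.09, adjusted p = 0.068) or replicate 2 of 2 h (-1.05, adjusted p = 0.088). Neither 4 h against 2 h (0.61, adjusted p = 0.196) nor 8 h against 4 h (0.27, adjusted p = 0.986) was called. A comparison of 8 h with 2 h, chosen after seeing the data, gave 0.88 (SE 0.22, adjusted p = 0.049), with 1 of the 8 genes called where 2.24% of genes were, and it lost its call in 5 of the 8 fits that leave out 1 library, with log2 changes of 0.61 to 1.14. Those 5 left out replicate 1 or 2 of 0 h, replicate 1 or 2 of 2 h, or replicate 2 of 8 h. With 4 h and 8 h as 1 group against 2 h it was 0.76 (SE 0.20, adjusted p = 0.0369), and SOCS2 was called too (0.44, SE 0.12, adjusted p = 0.0393), beside 4.84% of genes.

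In T-47D cells SOCS3 was at 1.20 and 0.965 CPM at 0 h, 1.05 and 0.966 after 2 h, 1.09 and 1.07 after 4 h, and 1.68 and 1.51 after 8 h. Only the 8 h group lay above 0 h, and that change was not called (0.56, SE 0.25, adjusted p = 0.107). The difference between the lines at 2 h was 1.06 (95% interval 0.37 to 1.75, adjusted p = 0.122) and was not called, so the dip at 2 h is not shown to differ between the lines. The genes most like SOCS3 were SPRY2 (r = 0.938), itself a feedback inhibitor of receptor tyrosine kinase signals, TRIM36 (r = 0.923) and EPHA2 (r = 0.906).

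SOCS1, an inhibitor that binds JAKs directly, lies on chromosome 16 at 11348274 to 11350061 on the minus strand of GRCh37, and in T-47D cells it was counted in few reads. The T-47D libraries held 29 and 34 counts at 0 h, 14 and 9 after 2 h, 21 and 20 after 4 h, and 15 and 17 after 8 h, which is 0.670 and 0.841 CPM, 0.300 and 0.217, 0.335 and 0.397, and 0.308 and 0.347. All 6 treated libraries were below both untreated ones. The log2 change was -1.53 (SE 0.43, adjusted p = 0.0307) at 2 h, -1.05 (SE 0.39, adjusted p = 0.0672) at 4 h and -1.20 (SE 0.41, adjusted p = 0.0342) at 8 h. The 2 h call was lost when either library of 0 h or of 2 h was left out, with changes of -1.78 to -1.33, and the 8 h call when either library of 0 h or 8 h, or replicate 2 of 4 h, was left out, with changes of -1.35 to -1.02.

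In Ishikawa cells SOCS1 was at 1.89 and 2.55 CPM at 0 h, 2.97 and 2.20 after 2 h, 1.99 and 2.06 after 4 h, and 2.37 and 1.71 after 8 h. Each treated group overlapped the 0 h range, and no change was called (0.22, adjusted p = 0.713 at 2 h). At 2 h SOCS1 was the 1 gene of the 8 whose response was called different between the lines, where 2.67% of 17090 genes were called. The difference was -1.73 (SE 0.45, 95% interval -2.67 to -0.79, adjusted p = 0.0416), and it lost its call in 9 of the 16 fits that leave out 1 library, with values of -1.99 to -1.53 over all 16. Those 9 left out replicate 1 of 0 h or of 2 h in Ishikawa cells, or, in T-47D cells, any library of 0 h, 2 h or 8 h or replicate 2 of 4 h, and the highest adjusted p, 0.244, came without replicate 2 of 2 h in T-47D cells. With a replicate block the difference was not called either (-1.71, adjusted p = 0.0702). DESeq2 gave SOCS1 no adjusted p within T-47D cells. In the same test at 4 h and 8 h, edgeR called 0 of the 8 genes, beside 6.03% and 10% of all genes. At an unadjusted p under 0.05 it had 2 and 3 of the 8, and DESeq2 called 0 and 1 (SOCS2). The shares of all genes at the unadjusted threshold and with DESeq2 are not given, so these counts cannot be read against a background. RMI2, a DNA repair gene on the opposite strand beside SOCS1 that shares no annotated exon base with it, changed by -0.01 (SE 0.06, adjusted p = 0.921) at 2 h and 0.36 (SE 0.06, adjusted p = 0.000115) at 8 h in T-47D cells.

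SOCS2, an inhibitor known for limiting growth hormone signals, lies on chromosome 12 at 93963590 to 93977263 on the plus strand of GRCh37. In Ishikawa cells it was at 7.45 and 5.87 CPM at 0 h, 5.91 and 6.82 after 2 h, 8.53 and 8.72 after 4 h, and 8.69 and 8.71 after 8 h. The 2 h libraries lay within the 0 h range and the 4 later libraries lay above it, close together. The change was -0.05 (adjusted p = 0.882) at 2 h, 0.38 (SE 0.14, adjusted p = 0.0784) at 4 h and 0.38 (SE 0.14, adjusted p = 0.057) at 8 h. With 4 h and 8 h as 1 group it was 0.38 (SE 0.12, adjusted p = 0.0234), and without replicate 1 of 0 h it passed at 4 h (0.56, adjusted p = 0.0259) and at 8 h (0.56, adjusted p = 0.0181). The 8 h change also passed without a filter on low counts (0.37, adjusted p = 0.0465).

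The T-47D libraries held 4 and 12 counts of SOCS2 at 0 h, 21 and 9 after 2 h, 2 and 8 after 4 h, and 0 and 5 after 8 h. The 2 h, 4 h and 8 h groups each overlapped 0 h, and a count of 0 allows up to 3 counts only if counts are independent, which is uncertain here because even numbers made up 71.2% to 74.6% of counts from 1 to 10. No T-47D change of SOCS2 against 0 h was called, and the intervals were as wide as -4.09 to 0.38 at 8 h. SOCS2 shares 240 of the 5786 exon bases of its protein-coding transcripts with the antisense gene SOCS2-AS1, which was not called in Ishikawa cells (-0.89, SE 0.52, adjusted p = 0.24 at 8 h).

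Counted over the 8 genes, 2 were called at 2 h in Ishikawa cells (CISH up, SOCS3 down), where 4.35% of 15787 genes were called. At 4 h it was 1 gene (CISH), beside 14.3% of all genes, and at 8 h 2 genes (CISH and PRLR, both up), beside 22.1%. With 4 h and 8 h as 1 group, 3 genes were called (PRLR, SOCS2 and CISH, all up), beside 25.7%. The shares at 4 h and 8 h are near those of all genes.

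In T-47D cells 3 of the 8 genes were called at 2 h (CISH and JAK2 up, SOCS1 down), where 9.3% of 15594 genes were called. At 4 h there were 3 (CISH, JAK2 and PRLR, all up) beside 21.5%, and at 8 h 4 (these 3 up, SOCS1 down) beside 29.7%. Median log2 changes of the 8 genes were 0.25, 0.11 and 0.18, against -0.01, -0.00462 and 0.00300 over all genes. In Ishikawa cells the medians were 0.08, 0.06 and 0.11, against -0.00225, 0.00468 and -0.00882. Between 4 h and 2 h and between 8 h and 4 h, none of the 8 genes was called in either line, where 2.39% and 0.0127% of genes were called in Ishikawa and 3.4% and 3.42% in T-47D cells. DESeq2 called 0 as well, and at an unadjusted p under 0.05 edgeR had 2 and 0 of the 8 in Ishikawa and 3 and 1 in T-47D cells. For these steps the shares of all genes with DESeq2 and at the unadjusted threshold are not given. Those counts can therefore not be read against the shares above. Between 8 h and 2 h, PRLR was called in T-47D cells (0.13, SE 0.04, adjusted p = 0.0133), beside 16.8% of genes, and lost its call without replicate 1 of 2 h (0.12, adjusted p = 0.141), replicate 2 of 2 h (0.14, adjusted p = 0.0659) or replicate 2 of 8 h (0.06, adjusted p = 0.224).

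The wider pathway was followed in 6 lists with 81 other genes. Of these, 62 were tested in Ishikawa cells, and 8 were called at 2 h (3 up, 5 down), 15 at 4 h (6 up, 9 down) and 28 at 8 h (15 up, 13 down). In T-47D cells 61 were tested, and 7 were called at 2 h (5 up, 2 down), 22 at 4 h (9 up, 13 down) and 25 at 8 h (7 up, 18 down). The shares called were 12.9%, 24.2% and 45.2% in Ishikawa and 11.5%, 36.1% and 41% in T-47D cells, beside 4.35%, 14.3% and 22.1% and 9.3%, 21.5% and 29.7% of all genes, and the median change over the lists stayed between -0.02 and 0.05. For fits that leave out 1 library, the share of all genes called is not given. The moves of the counts in those fits can therefore not be read as particular to the lists. The Ishikawa counts moved by more than 1.5 times with single libraries, to 15 at 2 h and 24 at 4 h without replicate 1 of 0 h, to 9 at 4 h and 11 at 8 h without replicate 2 of 0 h, to 9 at 4 h without replicate 1 of 4 h, and to 18 and 16 at 8 h without replicate 1 or 2 of 8 h. The T-47D count at 4 h was 12 without replicate 2 of 0 h and 9 without replicate 1 of 4 h.

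**Figure D4:**
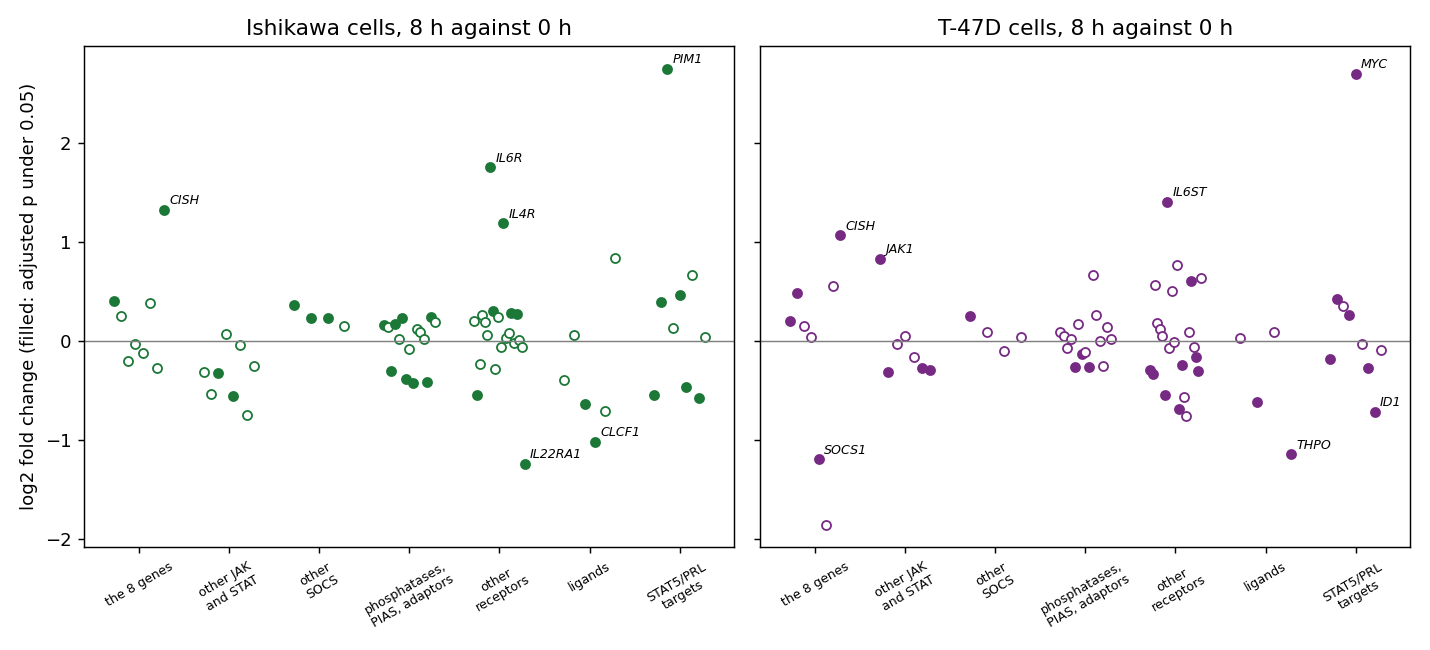
Log2 fold change at 8 h against 0 h for the 8 genes and for the tested genes of the 6 other lists, in Ishikawa (left) and T-47D cells (right); 1 point per gene, filled where the adjusted p was under 0.05, with names beyond a called change of 0.7. PIM1 stands highest in Ishikawa cells at 2.75 and MYC in T-47D cells at 2.70.

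Genes known as STAT5 or prolactin targets moved in both directions. Of 9 tested in each line, Ishikawa cells had 5, 5 and 6 called at 2, 4 and 8 h, while T-47D cells had 3, 7 and 6. These shares, 55.6%, 55.6% and 66.7% in Ishikawa and 33.3%, 77.8% and 66.7% in T-47D cells, stood above the 4.35%, 14.3% and 22.1% and the 9.3%, 21.5% and 29.7% of all genes called. The list was chosen with earlier results of these data known. CCND1, the cyclin of early G1, was up at each time in both lines (0.43, 0.30 and 0.39 in Ishikawa, 0.48, 0.19 and 0.43 in T-47D cells), and ID1, an inhibitor of basic helix-loop-helix factors, was down at each (-0.83, -0.53 and -0.57, and -0.68, -0.50 and -0.72). The survival gene BCL2L1 fell at 4 h and 8 h in both lines, by 0.52 and 0.55 on the log2 scale in Ishikawa and 0.25 and 0.19 in T-47D cells.

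PIM1, a survival kinase gene that cytokines induce through STAT5, was at 14.8 and 14.2 CPM in Ishikawa cells at 0 h and between 92.8 and 104 CPM in the 6 treated libraries. Its change there was 2.73 (SE 0.08, adjusted p = 3.94e-12) at 2 h and 2.79 (SE 0.08, adjusted p = 2e-12) at 4 h. In T-47D cells PIM1 was at 3.00 and 2.57 CPM at 0 h and 2.49 to 4.55 CPM after E2, and was not called (-0.01, adjusted p = 0.99 at 2 h). The difference between the lines was -2.72 (adjusted p = 1.68e-07) at 2 h.

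MYC, a growth-promoting transcription factor, was called up in both lines at 4 h and 8 h, with the larger change in T-47D cells. In T-47D cells it was at 5.70 and 4.83 CPM at 0 h and at 27.3 to 36.0 CPM in the 6 treated libraries, a change of 2.51 (SE 0.11, adjusted p = 1.64e-11) at 2 h and 2.70 (SE 0.11, adjusted p = 3.19e-12) at 8 h. In Ishikawa cells MYC started at 114 and 116 CPM and changed by 0.15 (adjusted p = 0.216) at 2 h. Its change there was 0.50 (SE 0.06, adjusted p = 5.01e-05) at 4 h and 0.46 at 8 h. The lines differed in this response by 2.37 (adjusted p = 1.95e-10) at 2 h.

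Among the other JAK and STAT genes, 2 of 8, both down, were called at 4 h and at 8 h in Ishikawa cells. In T-47D cells 1 of 7 was called at 2 h, 3 at 4 h and 4 at 8 h, of which JAK1 was up and the rest down. That is 25% of the list at both times in Ishikawa cells, beside 14.3% and 22.1% of all genes, and 14.3%, 42.9% and 57.1% in T-47D cells, beside 9.3%, 21.5% and 29.7%. JAK1, the kinase used by IL-6 family and interferon receptors, stood at 198 and 196 CPM at 0 h and rose by 0.54 (SE 0.04, adjusted p = 1.81e-08), 0.79 (adjusted p = 8.31e-11) and 0.83 (adjusted p = 3.01e-11) at 2, 4 and 8 h. It was at 10.6 and 12.3 CPM in Ishikawa cells and was not called there, and the lines differed by 0.67 (adjusted p = 0.000984) at 2 h.

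The other SOCS genes, 4 in all, were higher or not called. SOCS4 rose at 8 h in both lines (0.37, SE 0.09, adjusted p = 0.00794 in Ishikawa and 0.25, SE 0.07, adjusted p = 0.0113 in T-47D cells). It was the 1 gene of these 4 called in T-47D cells, at each time, while 3 were called at 8 h in Ishikawa cells, too few genes to read against the 22.1% of all genes called there.

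Of 15 phosphatases, PIAS proteins and adaptors, Ishikawa cells had 1, 4 and 8 called at 2, 4 and 8 h, and T-47D cells had 4 called at 4 h and 3 at 8 h. The T-47D shares, 26.7% and 20%, were near or below the 21.5% and 29.7% of all genes, and the Ishikawa shares of 6.67%, 26.7% and 53.3% stood beside 4.35%, 14.3% and 22.1%. The adaptor gene SH2B1, whose protein binds JAK2, fell at 4 h and 8 h in both lines (-0.33 and -0.42 in Ishikawa, -0.23 and -0.26 in T-47D cells). PIAS3, whose protein restrains STAT3, fell at 8 h in both (-0.39, adjusted p = 0.00348 and -0.13, adjusted p = 0.0362). PTPN1, a phosphatase that acts on JAK2, rose at 4 h in both by little (0.19, adjusted p = 0.0414 and 0.14, adjusted p = 0.0226).

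Of the other cytokine receptors, 1, 3 and 7 of 20 were called in Ishikawa cells and 2, 6 and 9 of 22 in T-47D cells. The shares were 5%, 15% and 35% in Ishikawa and 9.09%, 27.3% and 40.9% in T-47D cells, near those of all genes at 2 h and 4 h and above the 22.1% and 29.7% called at 8 h. IL6ST, the shared signal chain of the IL-6 family, rose from 208 and 195 CPM at 0 h to 496 and 575 CPM at 8 h in T-47D cells (1.41, SE 0.06, adjusted p = 3.19e-12) and by 0.30 (SE 0.07, adjusted p = 0.00653) in Ishikawa cells, a difference of 1.10 (adjusted p = 2.24e-07). Its partner IL6R went up in Ishikawa cells, from 0.681 and 0.501 CPM to 2.04 and 1.98 CPM at 8 h (1.76, SE 0.28, adjusted p = 0.000559), and down in T-47D cells (-0.55, SE 0.10, adjusted p = 0.000535). EPOR, the erythropoietin receptor, fell at 4 h and 8 h in both lines (-0.50 and -0.55 in Ishikawa, -0.30 and -0.34 in T-47D cells). GHR, the growth hormone receptor, of the same receptor class as PRLR, was at 3.85 and 3.66 CPM in Ishikawa and 236 and 229 CPM in T-47D cells at 0 h and fell by 0.29 (SE 0.04, adjusted p = 4.11e-05) at 8 h in T-47D cells, where PRLR rose.

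Few ligands were expressed. Of 15, 6 were tested in Ishikawa and 4 in T-47D cells. The gene for prolactin itself, PRL, averaged 0 CPM at 0 h in Ishikawa and 0.0247 CPM in T-47D cells. CTF1, which encodes the IL-6 family ligand cardiotrophin-1, fell at 8 h in both lines (-0.64, SE 0.20, adjusted p = 0.0315 and -0.61, SE 0.10, adjusted p = 9.76e-05), and CLCF1, of the same family, fell in Ishikawa cells from 9.30 and 12.3 CPM at 0 h to 4.90 and 5.37 CPM at 2 h (-1.06, SE 0.16, adjusted p = 0.000671).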

How the data were processed

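Poly(A) RNA was sequenced from 8 libraries of Ishikawa and 8 of T-47D cells, grouped by the cell line and treatment time in their labels. Per the labels and the study's methods, the deposited values are raw counts of reads per UCSC Known Gene, made by the authors with featureCounts from HISAT2 alignments (hg19) that had passed through SAMtools. Tool versions, strand setting and handling of read pairs and of multiply mapped reads are not given in the sources used here. Even numbers made up 71.2% to 74.6% of counts from 1 to 10, so a count need not be 1 fragment.

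Tests were run with edgeR 4.0.16 (R 4.3.3), after filterByExpr (minimum count 10), TMM scaling and quasi-likelihood F-tests, fitted per line with time as a factor of 4 levels (15787 and 15594 genes tested) and over 16 libraries for baseline and interaction (17090 genes). The script was tested on simulated data. Standard errors are the log2 change divided by the root of F. Same-numbered replicates were not taken as pairs, and no replicate pair held identical values. DESeq2 1.42.0, RLE scaling, a stricter filter (10 or more counts per library) or none, a threshold of 0.01 on the adjusted p, a replicate block, only the time points compared, 4 h and 8 h as 1 group, and leaving out each library were the alternatives. Comparisons with 2 h other than 4 h against 2 h, and the joined exons of all protein-coding transcripts as a length, were added after seeing the data. Positions came from GENCODE on GRCh37 and promoters from RefSeq on GRCh38.p14.

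The 8 genes, the marker and pathway lists and the tests were chosen with earlier results of these data known. Beside the 8 genes, the genes named were list genes called in the same direction in both lines at the same time, the 3 per line with the largest called change and a mean of at least 50 counts, GREB1, PGR and TFF1 as treatment checks, and the 3 genes with the highest correlation to each member that had a mean of at least 50 counts in both lines. Opposite-strand neighbours and PRL and GHR were added after their values were seen.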

Additional observations from a re-analysis of the deposited data

Results flagged for a closer look

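SOCS1 at 2 h was the 1 gene of the 8 whose response was called different between the lines by a test of the difference itself. In that test 2.67% of 17090 genes were called. At an unadjusted p under 0.05 there were 3 of the 8 genes (SOCS1, JAK2 and SOCS3). The share of all genes at that threshold is not given, so this count cannot be read against the 2.67%. At 2 h against 0 h the log2 change in T-47D cells minus that in Ishikawa cells was -1.73 (SE 0.45, edgeR's quasi-likelihood test, adjusted p = 0.0416), with 0.22 in Ishikawa and -1.53 in T-47D cells. The T-47D side rests on 14 and 9 counts at 2 h against 29 and 34 at 0 h. A replicate block ended the call (-1.71, adjusted p = 0.0702), as did a threshold of 0.01 on the adjusted p. The call was lost in 9 of the 16 fits that leave out 1 library.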

How the results depend on the processing

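CISH kept its direction and its call at 2, 4 and 8 h in both lines under every alternative run, single libraries left out included. With 4 h and 8 h as 1 group, 3 of the 8 genes were called at 4 h in Ishikawa cells (PRLR, SOCS2 and CISH). At an adjusted p under 0.01, 1 was called at 8 h in Ishikawa cells. The interaction at 2 h, 1 call for SOCS1, became 0 at an adjusted p under 0.01 and 0 with a minimum of 10 counts per library, where SOCS1 was filtered out by its construction. The interaction at 8 h, with 0 calls, became 1 with DESeq2 (SOCS2) and 2 without a filter (PRLR and SOCS2), and the cause was not tested. The share of all genes called is not given for the 0.01 threshold, the other filters or the DESeq2 interactions. These counts are therefore not set beside it. SOCS3 at 8 h against 2 h in Ishikawa cells lost its call with a minimum of 10 counts per library (adjusted p = 0.0519). SOCS2 at 8 h against 2 h in T-47D cells (-2.65, adjusted p = 0.0664) passed without a filter (-2.65, adjusted p = 0.0405) and without replicate 2 of 8 h (-7.02, adjusted p = 0.0413), where the remaining 8 h library held 0 counts and the value is no bound.

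The same replicate numbers appear in each group. The correlations of deviations between same-numbered libraries ran from -0.261 to 0.0643 in Ishikawa and from -0.0726 to 0.123 in T-47D cells. They show no pairing by number, but 2 libraries per group cannot exclude it. The lowest was between replicate 1 of 4 h and replicate 1 of 8 h in Ishikawa cells. Each of these was nearest to replicate 2 of the other time. With the replicate block, the counts of genes called at 2, 4 and 8 h were 606, 2044 and 3237 in Ishikawa and 1324, 3166 and 4495 in T-47D cells, against 686, 2251 and 3488 and 1450, 3355 and 4629 without it. The block left the counts of the 8 genes called as they were except for the interaction at 2 h, which went to 0 (SOCS1, -1.71, adjusted p = 0.0702), and SOCS3 at 8 h against 2 h in Ishikawa cells lost its call (adjusted p = 0.0646).

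STAT5B, whose changes were near 0 and never called, changed sign most. At 4 h in Ishikawa cells it was -0.0134 with 4 h and 8 h as 1 group, -0.0079 with a minimum of 10 counts per library, -0.0108 without a filter and -0.0055 with only the time points compared. At 8 h against 2 h it was 0.0110 with 4 h and 8 h as 1 group, 0.00090 with DESeq2 and 0.0021 with RLE scaling, and in the interaction at 2 h it was -0.0216 with DESeq2, -0.0104 without a filter and -0.0209 with RLE scaling.

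Leaving out each library in turn, the number of the 8 genes called was 1 to 2, 1 to 3 and 1 to 4 at 2, 4 and 8 h in Ishikawa cells, 2 to 3, 3 to 3 and 2 to 4 in T-47D cells, 0 to 1 for the interaction at 2 h and 0 to 1 at 8 h, where PRLR passed without replicate 1 of 0 h in Ishikawa cells (-0.38, adjusted p = 0.00904), SOCS3 without replicate 2 of 8 h there (1.07, adjusted p = 0.0461) and SOCS2 without replicate 2 of 8 h in T-47D cells, where its other 8 h library held 0 counts. Lists called 6 to 15, 9 to 24 and 11 to 31 genes in Ishikawa and 5 to 9, 9 to 22 and 20 to 24 in T-47D cells. A lone library left in a group is assumed to vary like the others. The share of all genes called in each of these fits is not given. These ranges can therefore not be read as particular to the 8 genes or the lists. Log2 changes that crossed 0, none of them called, were for Ishikawa cells at 2 h SOCS1 -0.0154 to 0.45, SOCS2 -0.21 to 0.12, STAT5A -0.17 to 0.20 and STAT5B -0.11 to 0.0650, at 4 h SOCS1 -0.33 to 0.11 and STAT5B -0.0681 to 0.0797, at 8 h SOCS1 -0.37 to 0.12 and STAT5B -0.19 to 0.11, and at 8 h against 2 h STAT5B -0.16 to 0.14. For T-47D cells they were SOCS3 -0.25 to 0.0650 and STAT5B -0.0869 to 0.0329 at 2 h, SOCS3 -0.15 to 0.16 at 4 h and STAT5B -0.0180 to 0.10 at 8 h. For the interaction they were CISH -0.0962 to 0.32, PRLR -0.25 to 0.0674 and STAT5B -0.0836 to 0.0639 at 2 h, PRLR -0.25 to 0.0425 at 4 h and STAT5B -0.11 to 0.20 at 8 h.

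SOCS1, SOCS2 and SOCS3 in T-47D cells and STAT5A in both lines were counted in few reads, and whether deeper libraries would change their calls was not tested. Each group had 2 libraries.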
